A study of Sus scrofa with 8 samples.

Results

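Solute carriers are membrane proteins that move amino acids, metals, sugars, nucleosides, ions and metabolites across the cell surface and the membranes of organelles. They are named by family, so that most SLC25A genes encode carriers of the inner mitochondrial membrane, SLC30A and SLC39A genes encode carriers that lower and raise cytosolic zinc, and SLC16A genes encode carriers of lactate and other monocarboxylates. In pancreatic islets, amino acid and mitochondrial carriers feed the metabolism that drives insulin release, and zinc is packed with insulin in the secretory granule. All genes of the porcine GeneChip whose only symbol begins with SLC and a digit or with SLCO were taken, apart from the SLC2A glucose transporters. This gave 115 of 6765 genes with 1 symbol, read by 174 of 23999 probe sets other than controls. A probe set combines the brightness of several short DNA probes to a transcript into 1 intensity, and the probe set with the highest mean over the 8 arrays stood for its gene.

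Islets of 8 male piglets, crosses of Duroc and Large White, were each put on 1 array, 4 labelled 3-day-old and 4 labelled 7-day-old. Both groups were prepared with collagenase and cultured in Ham's F10 medium with added glucose, isobutylmethylxanthine, albumin, glutamine, calcium chloride, nicotinamide and antibiotics. Such preparations hold endocrine cells together with other cells of the neonatal pancreas, and fewer cells of a type cannot be told apart from less RNA per cell. Each array had been scaled by the authors, and array medians lay between 171.6 and 178.5. A pair of arrays labelled 7-day-old stood apart on the second principal component, replicate 3 with a score of -68.5 and replicate 4 with one of 39.8, while the remaining 6 scored from -24.4 to 17.9. Counts are therefore also given without them. Groups are named by the deposited age labels. For MMP3, a matrix metalloproteinase, and NEUROD1, an endocrine transcription factor, these labels gave the direction opposite to the study's. The same held for PCSK2, DCN, CDH5, PECAM1, CPB1 and ASS1, which are described below, and the other genes of the study's tables were not compared. MMP3 differed by -3.19 on the log2 scale and NEUROD1 by 1.39 (7-day-old less 3-day-old, adjusted p = 0.0243 and 0.00407 from limma). Every direction below follows the deposited labels and would turn if they were exchanged.

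Markers of the tissue and of other cell types were measured beside the solute carriers. None of 4 islet hormone genes tested was called by limma, against 12.2% of all genes (0 at an unadjusted p under 0.05, 0 by the methods' t-test). Their summed intensities were 92064 to 116555 in arrays labelled 3-day-old and 91758 to 125937 in arrays labelled 7-day-old. Each of these 4 genes was at 16863 or more in every array, close to the top of the scale, where an array may no longer show a difference. IAPP, the islet amyloid peptide, stayed under the array's 20th percentile in every array. Of 7 further endocrine markers, 6 were higher in arrays labelled 7-day-old (5.03% of all genes were), with summed intensities of 37319 to 48178 and 60169 to 67585.

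Lower in arrays labelled 7-day-old, as were 7.16% of all genes, were 4 of 6 fibroblast and stellate markers (summed intensities of 8353 to 11618 and 3669 to 5961) and 3 of 8 endothelial markers (1576 to 1980 and 565 to 803). Of 5 duct markers 2 were lower (24868 to 29074 and 21935 to 25841), the brightest, SPP1, being near the top of the scale and not called. Of 4 acinar markers CPB1 was lower, and AMY2 at 0.52 and CELA1 at 0.79 had the other sign without being called (adjusted p = 0.103 and 0.0986), while CPA1 was near the top of the scale. The acinar sums were 29759 to 32502 and 25599 to 36127. Of 5 leukocyte markers TYROBP was lower, and ITGB2 at 0.54 had the other sign without being called (adjusted p = 0.0512), with sums of 361 to 605 and 385 to 399. The methods' t-test called 2 of the fibroblast and stellate markers, 3 endothelial, 1 duct, 1 acinar and 0 leukocyte markers. It called 6 of the further endocrine markers. Among the markers called by limma, NEUROD1, PCSK2, DCN, CDH5, PECAM1 and CPB1 stand in the study's own gene tables and are not independent of them. The part of these cell types in the differences below was not tested.

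Of the 115 solute carrier genes, 17 differed between the labels, 14 of them lower and 3 higher in arrays labelled 7-day-old. The lower genes carry nucleosides (SLC28A3), neutral amino acids (SLC38A1, SLC1A5), organic anions (SLCO2B1), copper (SLC31A1) and GDP-fucose (SLC35C1), among others. The higher genes were the nucleoside carrier SLC29A1, the endoplasmic reticulum carrier of glucose 6-phosphate SLC37A4 and SLC3A1, the heavy subunit of a cystine and dibasic amino acid transporter. The test was limma's moderated test on log2 intensity, adjusted over 21574 probe sets, those at or above the 20th percentile of intensity in 1 array or more. The 5 genes that did not reach it in any array were not tested: SLC1A2, SLC22A2, SLC23A1, SLC25A51 and SLC9A4. Of the 110 genes tested 91 reached it in all 8 arrays, among them all 17 called, and 19 in fewer.

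The 17 called genes were 15.5% of the 110 tested, and over all 6540 genes tested in the same way 12.2% were called (5.03% higher and 7.16% lower). The median log2 difference was -0.02 for the solute carriers and -0.02 for all genes, with 52 solute carriers above 0 and 58 below. In all 17 called genes the 4 arrays of 1 label lay apart from the 4 of the other. This was so in 30 of the 110 genes (27.3%), against 24.7% of all genes. Of the 110 genes, arrays labelled 7-day-old lay above in 10 and arrays labelled 3-day-old in 20. Over all 6540 genes tested, the shares were 11.1% and 13.5%. The size of the called differences ran from 1.32-fold to 4.75-fold, and 5 were at least 2-fold. The count of 17 fell to 11 without 3-day-old replicate 1, 8 without 3-day-old replicate 2, 7 without 3-day-old replicate 3, 8 without 7-day-old replicate 1, 8 without 7-day-old replicate 2 and 11 without 7-day-old replicate 4. Without both 7-day-old replicates 3 and 4 it was 5. It rose to 29 with an intensity trend and robust variances, with all 17 kept. With a stricter filter on dim probe sets it was 26 of 67 genes tested, 13 of them among the 17. SLC29A1, SLC35C1, SLC46A2 and SLCO2B1 were too dim to be tested with that filter. The share of all genes called is not given for these settings or without the arrays left out, so none of these counts can be set against it. The 6 genes called whichever array was left out were SLC28A3, SLC31A1, SLC35C1, SLC35F6, SLC38A1 and SLCO2B1. Of these, SLC31A1 and SLC38A1 were not called without both 7-day-old replicates 3 and 4, whereas the remaining ones and SLC1A5 were.

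**Figure D1:**
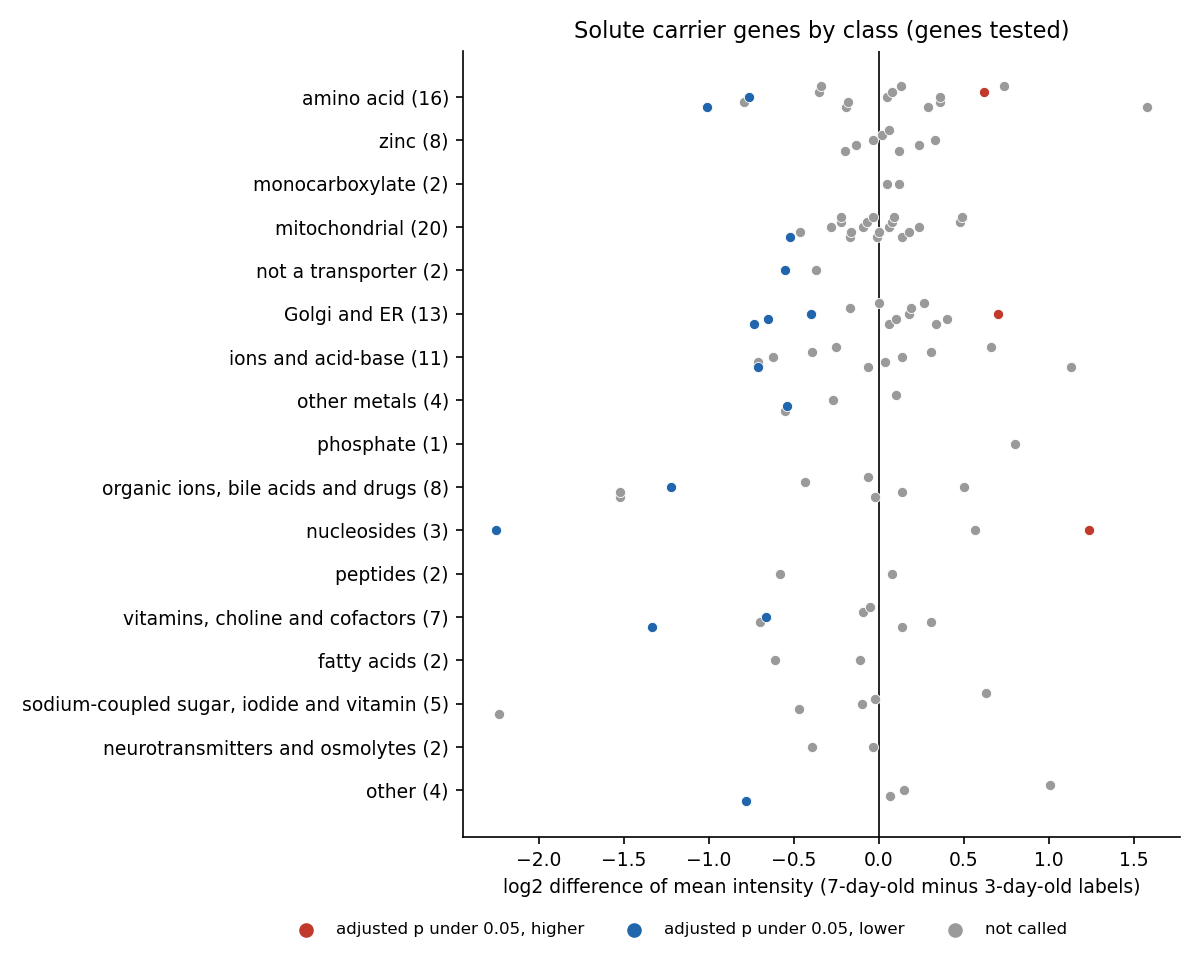
The log2 difference of mean intensity (horizontal axis, 7-day-old less 3-day-old by label) of each of the 110 solute carrier genes tested, 1 point per gene, in rows by class with the number of genes in brackets. Blue points are the 14 genes called lower and red points the 3 called higher; no zinc or monocarboxylate carrier is coloured.

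Of 17 amino acid carriers 16 were tested, of which 3 were called (18.8%, against 12.2% of all genes), 2 lower and 1 higher in arrays labelled 7-day-old, and 13 were not. The class had a median difference of 0.06 log2 units and a range from -1.01 to 1.58, the last in SLC36A2, which reached the 20th percentile in 2 arrays. SLC38A1 is a sodium-coupled carrier of glutamine and other small neutral amino acids. Its intensity was 1897, 2072, 2272 and 1832 in arrays labelled 3-day-old and 1094, 1340, 1139 and 1182 in arrays labelled 7-day-old, so the lowest of the former lay well above the highest of the latter. The log2 difference was -0.76 (standard error, SE, 0.107, adjusted p = 0.00829 from limma). It is the one called amino acid carrier with 3 probe sets, and all 3 were called lower, the others at -0.86 (adjusted p = 0.00598) and -0.81 (adjusted p = 0.0209).

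SLC1A5, which exchanges glutamine and other neutral amino acids across the cell surface, was also lower. It had intensities of 648, 841, 986 and 730 in arrays labelled 3-day-old and of 353, 365, 636 and 291 in arrays labelled 7-day-old. One 7-day-old array, replicate 3, came close to the lowest 3-day-old array. The log2 difference was -1.01 (SE 0.253, adjusted p = 0.0453). This call was lost without any 1 array other than 7-day-old replicate 3 (adjusted p from 0.0166 to 0.108 over the 8 leave-outs), by the methods' t-test (0.0744) and without the filter (0.0565).

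SLC3A1 went the other way. Its intensity was 692, 593, 505 and 797 in arrays labelled 3-day-old and 973, 953, 943 and 1061 in arrays labelled 7-day-old, where the 4 values lay close together. The log2 difference was 0.62 (SE 0.147, adjusted p = 0.0372), and its other probe set was at 0.25 (adjusted p = 0.324). The call was lost without any 1 array other than 3-day-old replicate 4 (adjusted p from 0.0231 to 0.0932), by the methods' t-test (0.0529) and with the mean of its probe sets (0.0625). SLC3A2, the related heavy subunit that carries large neutral amino acid transporters to the cell surface, varied widely within both labels, from 257 to 497 and from 220 to 558. Its log2 difference was -0.18 with a 95% interval from -0.96 to 0.61.

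Among the amino acid carriers that were not called, SLC7A1, which takes up arginine and lysine, had 1634, 1966, 1451 and 1642 in arrays labelled 3-day-old and 1265, 1339, 1421 and 1227 in arrays labelled 7-day-old. The labels lay apart by a small margin, at a difference of -0.34 log2 units (adjusted p = 0.0949). SLC7A1 was called with the stricter filter (0.0376) and with an intensity trend (0.0304). SLC1A1, a glutamate and cysteine carrier read by 5 probe sets, overlapped fully, with 2419 to 3390 and 2147 to 3952 and a difference of 0.08 log2 units (95% interval -0.39 to 0.55). Its other probe sets were at 0.05, 0.50, 0.50 and 1.04, none called, and the mean of all was at 0.43 (adjusted p = 0.427). Enzymes of amino acid metabolism were counted from a list. Of 15 measured, 4 were called (26.7%, against 12.2% of all genes), 3 lower in arrays labelled 7-day-old and 1 higher. The lower ones were PSAT1 of serine synthesis (log2 difference -0.85, adjusted p = 0.00844), ASS1 of arginine synthesis (-1.33, adjusted p = 0.0343) and BCAT1, which starts the breakdown of branched-chain amino acids (-0.41, adjusted p = 0.0331). The higher one was GAD2, which makes GABA from glutamate (1.14, adjusted p = 0.0126). ASS1 stands in the study's own gene tables and is not independent of them.

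**Figure D2:**
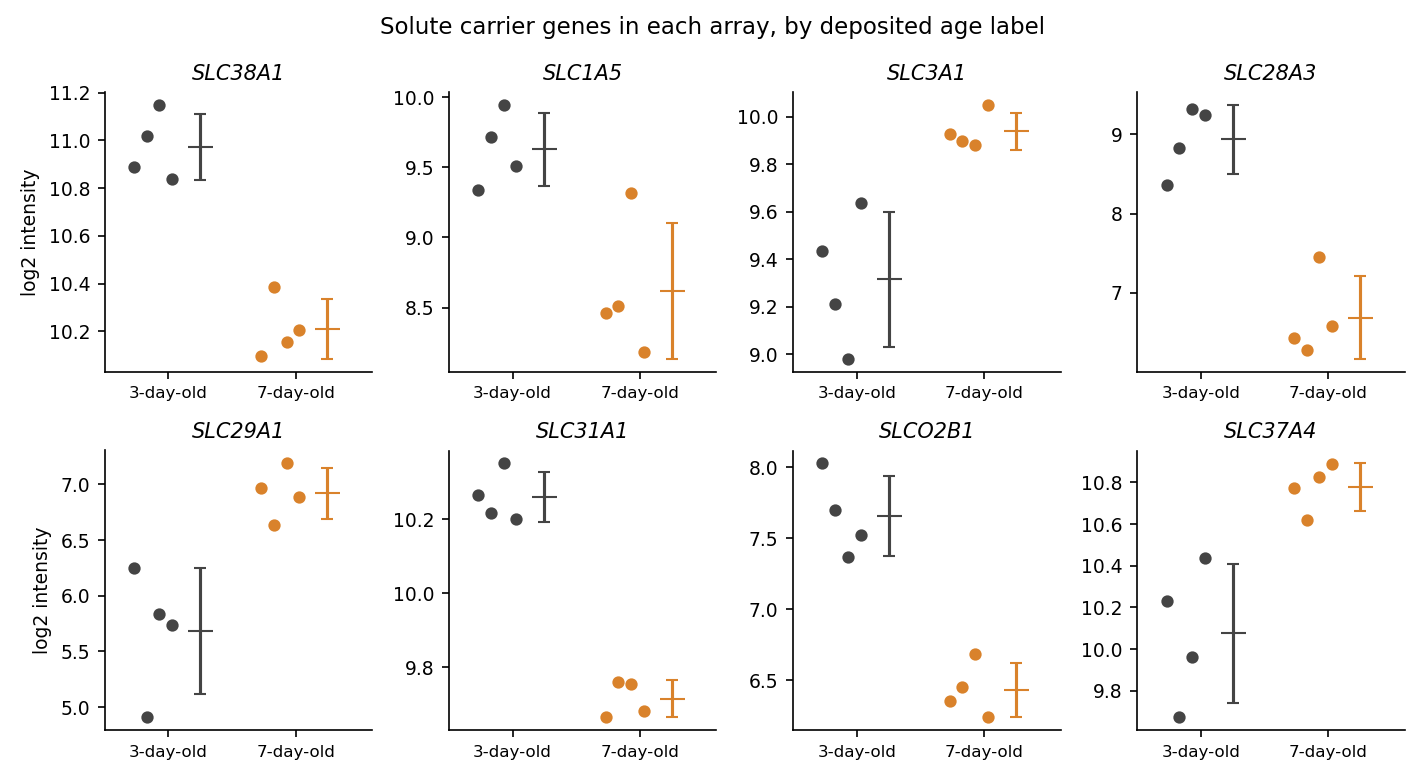
The log2 intensity (vertical axis, own scale in each panel) of 8 called solute carrier genes in each of the 4 arrays of each deposited age label (horizontal axis), with the mean and SD of the 4 log2 values as a bar beside the points. In each panel the 4 arrays of 1 label lie apart from the 4 of the other, and SLC3A1, SLC29A1 and SLC37A4 are the panels where arrays labelled 7-day-old lie above.

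No zinc carrier that was measured was called. SLC30A8, a zinc carrier known in islets, was not among the 115 genes, so nothing here speaks of it. All 8 measured genes of the SLC30A and SLC39A families reached the 20th percentile in all 8 arrays, none had an unadjusted p under 0.05, none was called by the methods' t-test or under any alternative tried, and in none did the labels lie apart. Over all genes 12.2% were called and the labels lay apart in 24.7%, and a class of 8 is too small to set its shares against these. SLC30A5, which loads zinc into the secretory pathway, had 710, 690, 599 and 416 in arrays labelled 3-day-old and 716, 730, 645 and 708 in arrays labelled 7-day-old. The log2 difference was 0.24 (95% interval -0.16 to 0.65), with one 3-day-old array below all others. SLC30A3, a zinc carrier of secretory vesicles, had 492, 463, 521 and 496 and then 507, 506, 621 and 435, a difference of 0.06 log2 units (-0.22 to 0.34). Its other probe set was at 0.61 (-0.01 to 1.23), and the mean of both at 0.33 (adjusted p = 0.176).

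The SLC39A carriers, which raise cytosolic zinc, were not called either. SLC39A14, which also takes up iron and manganese, had 183, 228, 288 and 232 in arrays labelled 3-day-old and 257, 229, 243 and 209 in arrays labelled 7-day-old, a difference of 0.02 log2 units (95% interval -0.32 to 0.37). Its other probe set was at -0.78 (adjusted p = 0.324). SLC39A7, which releases zinc from the endoplasmic reticulum, was at -0.13 (-0.41 to 0.16), and SLC39A1, a carrier of the cell surface, at -0.20 (-0.57 to 0.18). SLC39A4 was at 0.12 (-0.27 to 0.52), SLC39A5 at -0.03 (-0.46 to 0.40) and SLC39A2 at 0.33 (-0.44 to 1.10). For the chosen probe set the interval stayed within 2-fold in either direction in 7 of the 8 genes, SLC39A2 being the exception, so smaller differences could have been missed. The second probe sets of SLC39A1 at -0.34 (-0.72 to 0.03) and SLC39A5 at -0.40 (-1.04 to 0.25) were not called. Of the zinc-binding metallothioneins listed, the 2 on the array by symbol were not called, MT1A at 0.30 (adjusted p = 0.0786) and MT3 at -0.10 (adjusted p = 0.762), and the methods' t-test called 1 of the 2.

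The 2 monocarboxylate carriers on the array, SLC16A3 and SLC16A13, overlapped between the labels. SLC16A3, which exports lactate from glycolytic cells, had intensities of 89.8, 60.4, 127 and 51.4 in arrays labelled 3-day-old and 133, 66.6, 52.8 and 106 in arrays labelled 7-day-old. The spread within each label was as wide as the whole range, and the log2 difference was 0.12 (95% interval -0.77 to 1.01). SLC16A13 was steadier, with 262, 253, 332 and 257 and then 310, 269, 310 and 254, a difference of 0.05 log2 units (-0.24 to 0.34). Neither had an unadjusted p under 0.05, and the methods' t-test called neither. Of the 4 other genes tested for monocarboxylate handling, 1 was higher and 1 lower, a list too short to set its share against the 12.2% of all genes. The methods' t-test called 1 of the 4. EMB, a membrane partner of monocarboxylate carriers, differed by 0.67 log2 units (adjusted p = 0.0493) and the lactate dehydrogenase subunit LDHB by -0.77 (adjusted p = 0.019), while LDHA was at -0.24 (adjusted p = 0.286) and BSG, another partner, at 0.29 (adjusted p = 0.223).

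Mitochondrial carriers, taken by family name, formed the largest class and held 1 called gene. Of 21 SLC25A genes 20 were tested, and 1 (5%) was called against 12.2% of all genes, with a median difference of -0.02 log2 units and a range from -0.52 to 0.49. For 19 of the 20 the 95% interval stayed within 2-fold in either direction. The called gene was SLC25A24, the calcium-dependent carrier that exchanges ATP-magnesium for phosphate. Its intensity was 4616, 5047, 5891 and 4300 in arrays labelled 3-day-old and 3299, 3801, 3321 and 3354 in arrays labelled 7-day-old, with no overlap. The log2 difference was -0.52 (SE 0.118, adjusted p = 0.0334 from limma). The call was lost without any 1 array other than 3-day-old replicate 4 (adjusted p from 0.0323 to 0.085) and with the mean of its 2 probe sets (0.749). The other probe set was dim, with means of 32.1 and 24.6, and reached the 20th percentile in 4 arrays. Its log2 difference was -0.06 with a 95% interval from -2.31 to 2.19, too wide to set against the call.

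None of the 3 ADP/ATP carriers measured, which exchange ATP made in the matrix for cytosolic ADP, was called. SLC25A4 had 1372, 1403, 1445 and 1562 in arrays labelled 3-day-old and 1639, 1631, 1589 and 2015 in arrays labelled 7-day-old. All 7-day-old values lay above, by a narrow margin, at a difference of 0.24 log2 units that was not called (adjusted p = 0.174). SLC25A5 was at 0.06 (95% interval -0.20 to 0.31) and SLC25A6 at -0.22 (-0.55 to 0.11), each with overlapping labels. These 3 genes are close in sequence, and whether their probe sets read each other's transcripts was not tested.

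SLC25A3, the phosphate carrier that supplies ATP synthase, had 12922, 13515, 14911 and 14234 in arrays labelled 3-day-old and 12456, 11008, 11233 and 11038 in arrays labelled 7-day-old. The labels lay apart at a difference of -0.28 log2 units that was not called (adjusted p = 0.0806), and passed by the methods' t-test (0.044), with the stricter filter (0.0334) and with an intensity trend (0.0133). Its second probe set had the other sign, at 0.19 (adjusted p = 0.7), and the mean of both was at -0.05 (adjusted p = 0.854). SLC25A14, an uncoupling-protein relative also called UCP5, had 210, 237, 239 and 252 and then 337, 311, 277 and 400. Here the 7-day-old values lay above, at a difference of 0.49 log2 units (adjusted p = 0.053), and its second probe set was at 0.41 (adjusted p = 0.0728). SLC25A14 was called with the stricter filter (adjusted p = 0.0156), an intensity trend (0.0294) and an offset of 16 before log2 (0.047). It was also called with the mean of both probe sets (0.0318) and with array quality weights (0.0359). The citrate carrier SLC25A1 was at -0.07 (-0.25 to 0.11). Of 10 other genes of the mitochondrial gate and fuel entry, 1 was called (10%, near the 12.2% of all genes), MPC2 of the pyruvate carrier, at 0.34 (adjusted p = 0.0289).

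**Figure D3:**
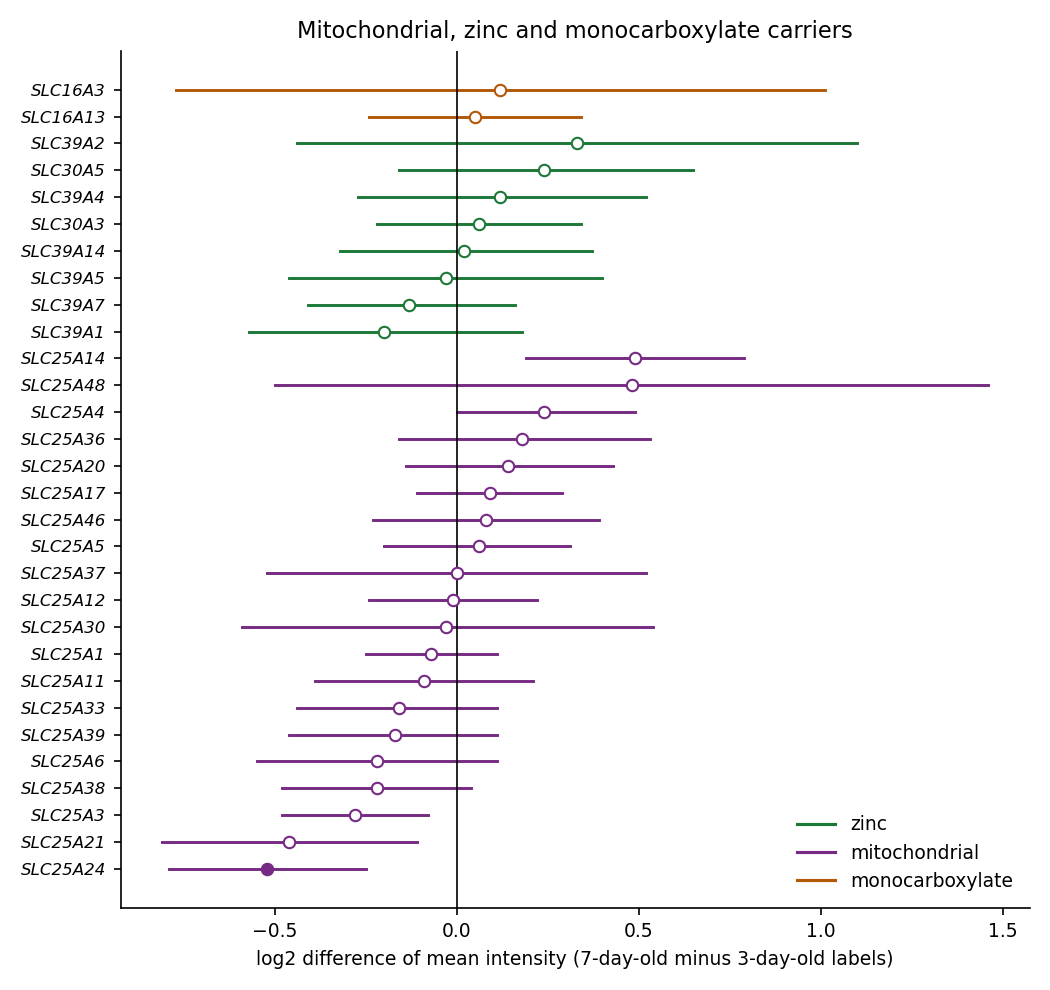
The log2 difference of mean intensity (horizontal axis, 7-day-old less 3-day-old by label) with its 95% interval from limma as a line, for the 20 mitochondrial, 8 zinc and 2 monocarboxylate carriers tested. The filled point is SLC25A24, the one gene called, and open points were not called.

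No gene of the vesicular carriers of glutamate, monoamines, acetylcholine, GABA and nucleotides (SLC17A6 to SLC17A9, SLC18 and SLC32A1) was among the 115. SLC30A3, described above, is the member known for loading vesicles. The proton pump that powers such carriers and acidifies the insulin granule was measured by 12 listed genes. None was called by limma, against 12.2% of all genes (4 at an unadjusted p under 0.05, 0 by the methods' t-test). The list is too short to set its share against that of all genes. Log2 differences ran from -0.15 to 0.42 with a median of 0.12. The 2 genes of the sodium pump listed, which keeps up the gradient that many carriers use, were not called either (0 at an unadjusted p under 0.05, 0 by the methods' t-test).

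Beyond these classes, nucleoside carriers held the largest called difference, and the members of this class that were called had opposite signs. SLC28A3, a sodium-coupled carrier that concentrates purine and pyrimidine nucleosides, had intensities of 330, 455, 637 and 604 in arrays labelled 3-day-old and of 86.6, 77.9, 175 and 96.3 in arrays labelled 7-day-old. The highest 7-day-old array lay far below the lowest 3-day-old array. The log2 difference was -2.25 (SE 0.309, adjusted p = 0.00786 from limma), and it was called without each array in turn (adjusted p from 0.0123 to 0.0269). SLC29A1, the equilibrative carrier that lets nucleosides and adenosine through the cell surface, had 76.2, 30, 57.1 and 53.2 and then 125, 99.3, 146 and 118. All 7-day-old arrays lay above, at a difference of 1.24 log2 units (SE 0.279, adjusted p = 0.0329). This call was lost without any 1 of 6 arrays, all but 3-day-old replicates 1 and 2 (adjusted p from 0.0277 to 0.0797), and by the methods' t-test (0.0584).

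Carriers of the Golgi apparatus and endoplasmic reticulum, taken by family (SLC33, SLC35 and SLC37), held 4 called genes of 13 (30.8%, against 12.2% of all genes), 3 lower and 1 higher. Such carriers bring nucleotide sugars and other building blocks into the lumen, but the place and cargo of each member, SLC35F6 among them, were not checked. The labels lay apart in 7 of the 13 (53.8%, against 24.7% of all genes), and the median log2 difference was 0.10. A class of 13 is too small to set its shares against those of all genes. SLC35C1, the Golgi GDP-fucose transporter, had 200, 195, 195 and 166 in arrays labelled 3-day-old and 111, 101, 124 and 121 in arrays labelled 7-day-old, a difference of -0.73 log2 units (SE 0.106, adjusted p = 0.00915). SLC35F6, of the same family, had 507, 493, 522 and 537 and then 327, 307, 340 and 336. The values within each label were close together, at a difference of -0.65 log2 units (SE 0.0769, adjusted p = 0.00591), the lowest adjusted p among the solute carriers. Its other probe set was at -0.29 (adjusted p = 0.396).

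SLC35A4, another Golgi carrier of the family, had 503, 486, 503 and 502 in arrays labelled 3-day-old and 407, 341, 402 and 368 in arrays labelled 7-day-old, a difference of -0.40 log2 units (SE 0.086, adjusted p = 0.0293). Its second probe set had the other sign, at 0.17 (adjusted p = 0.779). The call was lost without any 1 array other than 7-day-old replicate 3 (adjusted p from 0.0444 to 0.0752) and with the mean of both probe sets (0.716). SLC37A4 is needed for the release of glucose from glucose 6-phosphate. It had 1202, 816, 997 and 1385 and then 1752, 1571, 1814 and 1895, a difference of 0.70 log2 units (SE 0.17, adjusted p = 0.0405), and its second probe set was also higher, at 0.78 (adjusted p = 0.022). The call of the first was lost without any 1 array other than 3-day-old replicate 4 (adjusted p from 0.0265 to 0.0988), by the methods' t-test (0.0609) and without the filter (0.0512). Further genes had all 7-day-old values above without being called. SLC33A1, which brings acetyl-CoA into the endoplasmic reticulum, was at 0.40 (adjusted p = 0.0561). It was called with the stricter filter (0.0182), with an intensity trend (0.0156) and with array quality weights (0.0357). The mean of its 4 probe sets was at 0.28 (adjusted p = 0.228). Its other probe sets were at 0.47, at 0.37 and, in a dim one with means of 43.9 and 46.9, at -0.13. Of the carriers of the sulphate donor PAPS, SLC35B2 was at 0.19 (adjusted p = 0.165) and SLC35B3 at 0.27 (adjusted p = 0.118).

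Among metal carriers outside the zinc families, SLC31A1, the high-affinity copper importer, had 1232, 1191, 1307 and 1177 in arrays labelled 3-day-old and 811, 867, 863 and 821 in arrays labelled 7-day-old. Within each label the 4 values were tight, and the log2 difference was -0.54 (SE 0.0764, adjusted p = 0.00829). It was called without each array in turn (adjusted p from 0.0154 to 0.0289), whereas the mean with its second probe set was not (0.572). The iron importer SLC11A2 had 335, 280, 220 and 241 and then 153, 206, 178 and 195, apart by a narrow margin but not called, at -0.55 (adjusted p = 0.0697). Its other tested probe sets were at -0.00 and 0.26, and the mean of all was at -0.13 (adjusted p = 0.592), a much smaller difference. That mean includes a probe set too dim to be tested. The chosen probe set was called with the stricter filter (adjusted p = 0.0219) and with an intensity trend (0.0378).

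Of carriers of organic ions, bile acids and drugs 1 of 8 tested was called (12.5%), and of carriers of vitamins, choline and cofactors 2 of 7 (28.6%). All were lower in arrays labelled 7-day-old. Over all genes 12.2% were called and 7.16% called lower, and both classes are too small to set their shares against these. SLCO2B1, an uptake carrier of steroid sulphates and drugs, had 261, 208, 165 and 184 in arrays labelled 3-day-old and 81.7, 87.4, 103 and 75.4 in arrays labelled 7-day-old, a difference of -1.22 log2 units (SE 0.166, adjusted p = 0.00762), and was called without each array in turn. SLC46A2, of the folate transporter family, had 265, 209, 241 and 121 and then 105, 60, 78.6 and 81.4, a difference of -1.33 log2 units (SE 0.277, adjusted p = 0.0263). In SLC46A2 the fourth 3-day-old array came near the 7-day-old values. Its call was lost without any 1 of 6 arrays, all but 3-day-old replicate 4 and 7-day-old replicate 1 (adjusted p from 0.0119 to 0.0699). SLC44A2, a choline transporter-like protein, had 363, 379, 366 and 302 and then 224, 201, 203 and 265, a difference of -0.66 log2 units (SE 0.125, adjusted p = 0.0196), and 2 of its 3 probe sets were called. Leaving out either of 3-day-old replicates 2 and 3 or of 7-day-old replicates 1 and 2 ended the call (adjusted p up to 0.0572). Its relative SLC44A4 was at -0.70, apart but not called (adjusted p = 0.0877). SLC44A4 was called with the stricter filter (0.0295) and with an intensity trend (0.0259).

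Of the ion carriers, SLC12A4, a potassium and chloride cotransporter of cell volume control, was lower. It had 411, 475, 454 and 420 in arrays labelled 3-day-old and 252, 342, 241 and 252 in arrays labelled 7-day-old, a difference of -0.71 log2 units (SE 0.131, adjusted p = 0.0186). Leaving out either of 3-day-old replicates 2 and 3, or 7-day-old replicate 1, ended the call (adjusted p up to 0.0543). Not called, though the labels lay apart, were the anion carrier SLC26A11 at 0.31 (adjusted p = 0.0694) and the magnesium carrier SLC41A1 at -0.39 (adjusted p = 0.051). With the mean of all probe sets SLC26A11 was called, at 0.34 (adjusted p = 0.0338), and SLC41A1 was at -0.06 (adjusted p = 0.901). Both were called with the stricter filter (0.0267 and 0.0159) and by the methods' t-test (0.0431 and 0.046). SLC26A11 was also called with an intensity trend (0.0453) and SLC41A1 with array quality weights (0.0358). SLC45A3, also called prostein, had 384, 444, 574 and 475 and then 268, 246, 249 and 325, a difference of -0.78 log2 units (SE 0.15, adjusted p = 0.0206), and 2 of its 3 probe sets were called. Leaving out 3-day-old replicate 2, or either of 7-day-old replicates 1 and 2, ended the call (adjusted p up to 0.0602).

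The symbol rule also took SLC9A3R1 and SLC9A3R2, which are scaffold proteins that bind transporters rather than transporters. SLC9A3R2 had 294, 255, 286 and 254 in arrays labelled 3-day-old and 201, 165, 187 and 192 in arrays labelled 7-day-old, a difference of -0.55 log2 units (SE 0.0989, adjusted p = 0.0173). It was lost without 3-day-old replicate 3 (0.0518). In the SLC5 family, which couples sodium to sugars, iodide and vitamins, none of 5 genes was called, against 12.2% of all genes. A family of 5 is too small to set its share against that. SLC5A4 had 283, 229, 243 and 320 and then 366, 383, 540 and 378, a difference of 0.63 log2 units (adjusted p = 0.053). It was called with the stricter filter (adjusted p = 0.0148), an intensity trend (0.0164) and median centring (0.0482). An offset of 16 before log2 (0.0427), gene means (0.0381) and array quality weights (0.0403) also gave a call, but not the methods' t-test (0.0745). The creatine carrier SLC6A8 overlapped fully between the labels, with a difference of -0.03 log2 units (95% interval -0.20 to 0.14).

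Where a gene had several probe sets, they were compared. Of the 40 genes with several, 18 had probe sets with log2 differences of opposite sign, and none had probe sets called in opposite directions. Of the 9 called genes with several, 2 (SLC38A1 and SLC37A4) had every tested probe set called the same way. In SLC25A24, SLC31A1, SLC35A4, SLC35F6 and SLC3A1 the second probe set was not called. Those of SLC25A24 and SLC31A1 were dim, reaching the 20th percentile in 4 and 6 arrays. No gene whose chosen probe set was not called had another that was.

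**Figure D4:**
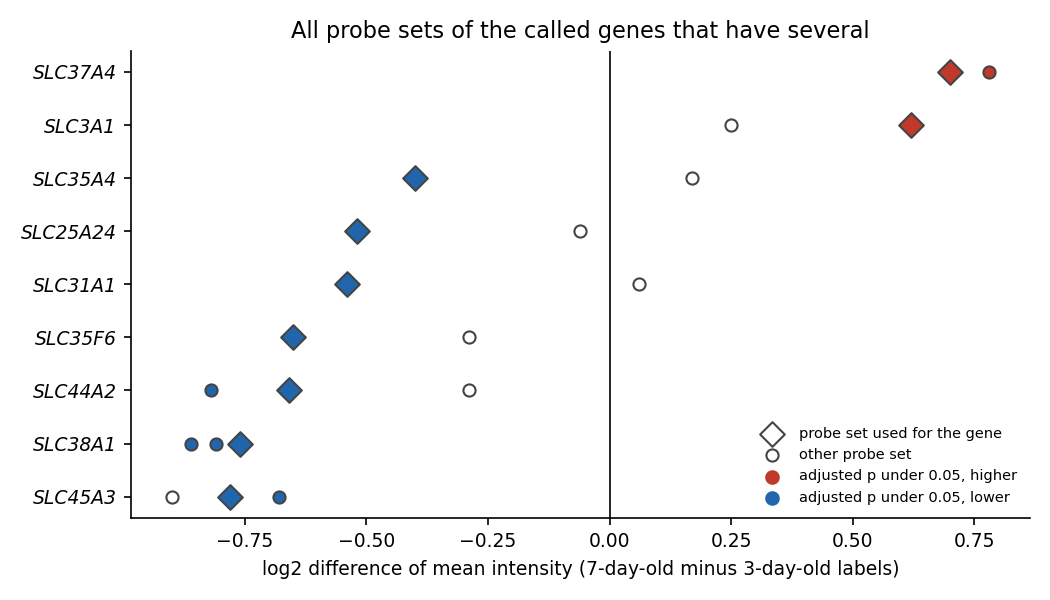
The log2 difference of mean intensity (horizontal axis, 7-day-old less 3-day-old by label) of every probe set of the 9 called genes that have several. Diamonds are the probe sets used for the gene and circles the others, filled where called and open where not; SLC38A1 and SLC37A4 have every probe set filled, and SLC35A4 and SLC31A1 have an open one on the other side of 0.

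Which pig stood farthest from the others of its label differed from gene to gene. The array farthest from its label's mean was 7-day-old replicate 4 for 35 of the 110 genes (31.8%, and 29.9% of all genes) and 7-day-old replicate 3 for 25 (22.7%, and 30% of all genes). Among arrays labelled 3-day-old, each was the farthest for 24 to 31 genes. Without 7-day-old replicate 3 there were 13 called genes, 12 of them among the 17, and without 7-day-old replicate 4 there were 11, 10 of them among the 17. None of the 17 changed sign under any alternative tried. In all 17 the labels lay apart, so leaving out arrays or changing the filter or the test could not have changed it.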

How the data were processed

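Gene expression was measured on pig Affymetrix GeneChips, 1 per pig, in islets labelled 3-day-old (n = 4) and 7-day-old (n = 4). The deposited intensities, 1 per probe set and linear, had been scaled by the authors so that all arrays share a mean trimmed by 2%. Neither the summarising software nor the samples that had an additional round of amplification are given in the sources. The values are not divided by probe set medians, a later step of the authors. Intensities under 1 were set to 1 and put on the log2 scale. Probe sets under the array's 20th percentile in every array and the 124 control probe sets were left out. Symbols came from the platform annotation. Of 23999 probe sets 10069 had 1 symbol, 198 several and 13732 none. Probe sets with several symbols named no gene.

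Labels were compared with lmFit and eBayes of limma 3.58.1 (R 4.3.3). Tests were two-sided, p-values were adjusted by Benjamini-Hochberg across all tested probe sets, and the threshold was 0.05. The code was tested first on simulated data. The 95% intervals come from the same fit, for 1 gene at a time. The methods' t-test is the unpaired one named in the study. A gene's level was not compared with another gene's. Precision is limited by the number of arrays: over the solute carriers, the SE of the log2 difference had a median of 0.169. Python 3.11.15 with pandas 2.3.3 and matplotlib 3.10.9 made the summaries and plots. The members, classes and lists were chosen with earlier results of these data known. A rule named 25 genes: those called with the largest differences per class and over all classes, the 2 with the highest mean of each class, and genes known in islets where measured. Of the genes listed as known in islets, SLC30A8, SLC16A1, SLC7A2, SLC7A5, SLC17A6, SLC18A1 and SLC18A2 were not among the 115. The other solute carrier genes named were chosen after their values were seen. Alternatives were leaving out the filter, filtering at the 50th percentile in 4 or more arrays (the stricter filter), the methods' t-test, an intensity trend with robust variances, median centring, quantile normalization, an offset of 16 before log2, a gene's mean over its probe sets, array weights by quality, a block for replicate number, and leaving out each array.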

Additional observations from a re-analysis of the deposited data

Results flagged for a closer look

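In 92 sets of 4 arrays, the values of 46 named genes by label, 12 held 1 array whose gap to the nearest other exceeded the 95% limit of Dixon's test on the log2 scale. Chance alone flags about 1 in 20 such sets. Among called genes, 7-day-old replicate 2 had an SLC12A4 intensity of 342 against 241 to 252 in the other arrays of its label, and an SLC25A24 intensity of 3801 against 3299 to 3354. In SLC35C1, 3-day-old replicate 4 had 166 against 195 to 200, and in SLC35A4, 3-day-old replicate 2 had 486 against 502 to 503.

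Mitochondrial carriers that were not called held 4 such values, all in arrays labelled 7-day-old. SLC25A1 had 1264 in replicate 2 against 1132 to 1147, and SLC25A5 had 10414 in replicate 2 against 12307 to 12638. SLC25A3 had 12456 in replicate 1 against 11008 to 11233, and SLC25A4 had 2015 in replicate 4 against 1589 to 1639. In zinc carriers, 3-day-old replicate 4 had an SLC39A5 intensity of 640 against 568 to 574 and an SLC39A7 intensity of 1322 against 1104 to 1133. SLC16A13 had 332 in 3-day-old replicate 3 against 253 to 262, and SLC5A4 had 540 in 7-day-old replicate 3 against 366 to 383.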

How the results depend on the processing

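The count of genes called lower, 14, was 12 to 21 under the alternatives other than the block and leaving out arrays, 7 to 13 when 1 array was left out, and 5 without 7-day-old replicates 3 and 4, a setting chosen after seeing the data. The count called higher, 3, was 0 to 2 when 1 array was left out and 0 without 7-day-old replicates 3 and 4. It was 6 with the stricter filter, 8 with the intensity trend, 5 with the offset of 16, 5 with the mean of all probe sets, 6 with array quality weights and 1 by the methods' t-test. With the replicate number as a block, 0 were called higher and 0 lower by limma (32 at an unadjusted p under 0.05). The labels number different pigs, and array residuals of equal number correlated between -0.0135 and 0.00487, so the numbers do not pair the arrays. Over all alternatives, 724 values of single named genes kept their direction and side of the threshold, 97 lost a call, 32 gained one and 14 changed sign. The changes of sign were all in genes not called, and their cause was not tested. When 1 array was left out, SLC16A3 lay from -0.10 to 0.36, SLC1A1 from -0.05 to 0.24, SLC30A3 from -0.03 to 0.14, SLC39A5 from -0.18 to 0.13, SLC39A14 from -0.09 to 0.13 and SLC3A2 from -0.44 to 0.01. SLC1A1 was at -0.00 with array quality weights and SLC39A14 at -0.38 with the mean of its probe sets. Without 7-day-old replicates 3 and 4, SLC1A1 was at -0.19, SLC25A5 at -0.01 and SLC39A1 at 0.02. The median log2 difference of all genes lay between -0.03 and -0.01 under every alternative.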

Other observations

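Some solute carriers near the array's 20th percentile, which lay at intensities of 26.4 to 31.3, showed values on which no call above rests. SLC36A2, a carrier of small amino acids such as glycine and proline, had 44.2 and 47.9 in 7-day-old replicates 1 and 3, and 2.54 to 7.49 in the other 6 arrays. SLC5A5, the iodide carrier of the thyroid, had 22.5, 27, 35 and 60.1 in arrays labelled 3-day-old and 16.1, 1.17, 7.1 and 19.3 in arrays labelled 7-day-old, with a log2 difference of -2.23 that was not called (adjusted p = 0.144) and that rests on values under the percentile in 6 arrays. SLC9A4, a sodium and proton exchanger, had 17.1 to 29.4 and 1.53 to 9, apart between the labels but under the percentile in every array, so it was not tested. The serotonin carrier SLC6A4 had 12.9 to 41.4 and 8.07 to 35.7, and reached the percentile in 2 arrays.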
